A study of Homo sapiens with 32 samples.

Results

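The response of RNA levels to thapsigargin was measured in human HEK293T cells expressing WT eIF3d. It was drawn from 4 of the 32 samples of the series, 2 RNA-Seq libraries of cells given 600 nM thapsigargin (Tg) for 16 h and 2 of cells given an equal volume of the solvent DMSO. HEK293T is an embryonic kidney cell line that carries the SV40 large T antigen. The genes described are the 9637 of 58721 in the deposited table whose mean over the 8 RNA-Seq libraries was at least 1 RPKM, in which the read number of a gene is divided by its length and by the depth of the library. The other 4 of those libraries came from cells expressing the phosphomimetic form labelled eIF3d (S528D, S529D), called DD here, given Tg or DMSO in the same way. ELOVL7, at a mean of 1.00 RPKM, was the last gene inside that limit, and ENSG00000248161, at 0.9998 RPKM, was the first outside it. The study also holds m6A-eCLIP, which maps N6-methyladenosine in RNA, and Subunit-Seq, in which the cap-binding domain of eIF3d is cut free and its RNA sequenced beside input RNA, in cells carrying HA-eIF3d-TEV. Polyadenylated RNA was the source of all RNA-Seq libraries. The labels do not say whether the cells are clones, whether native EIF3D remains, or whether the libraries came from separate cultures, so the p-values measure only the spread between these libraries.

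Thapsigargin blocks the pump that moves calcium into the endoplasmic reticulum (ER), and the emptied ER misfolds its client proteins. The unfolded protein response then acts through ATF6, IRE1 with its target XBP1, and PERK, and raises chaperones, disulfide isomerases and degradation factors of the ER. PERK phosphorylates the initiation factor eIF2, which lowers protein synthesis overall and favours translation of ATF4, a step shared with the integrated stress response (ISR). ATF4 and its partners DDIT3 (CHOP) and ATF3 act on genes of amino acid supply, redox balance and cell death. Within the initiation factor eIF3, the eIF3d subunit can itself bind the mRNA cap.

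Many ER chaperone promoters carry an ER stress element (ERSE), CCAAT and CCACG with 9 bases of any kind between them, whose CCAAT end binds NF-Y and whose CCACG end binds ATF6. It was searched for on both strands in the 250 bases before the start of each gene in RefSeq promoters of GRCh38.p14. An exact match stood in 22 of 27305 promoters (0.0806%), in 11 of the 6837 matched to genes tested here (0.161%) and in 5 of the 20 matched to ER chaperones (25.0%). The sequences below are those of the best known ER stress genes with a match and of SERP1, an ER membrane protein that was picked after its values were seen. They are shown because the results on the ER turn on these genes. Each runs 5′ to 3′ on the strand of its gene, and capitals mark the CCAAT and CCACG ends, or their complements ATTGG and CGTGG where the element lies on the opposite strand. HSPA5 (BiP, the main ER chaperone) is given over the whole window, chr9:125241344-125241593, minus strand, with the first base of its element 66 bases before the start. CANX (calnexin) is given at chr5:179698748-179698826, plus strand, HSP90B1 (GRP94), which holds 2 matches, at chr12:103930186-103930369, plus strand, and CALR (calreticulin) at chr19:12938359-12938432, plus strand. XBP1 is given at chr22:28800573-28800651, minus strand, and SERP1 at chr3:150546680-150546746, minus strand.
HSPA5: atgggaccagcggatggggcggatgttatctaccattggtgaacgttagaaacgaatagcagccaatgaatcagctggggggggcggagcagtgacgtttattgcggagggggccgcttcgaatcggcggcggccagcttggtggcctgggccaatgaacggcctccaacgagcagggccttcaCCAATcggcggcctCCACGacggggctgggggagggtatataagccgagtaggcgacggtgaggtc
CANX: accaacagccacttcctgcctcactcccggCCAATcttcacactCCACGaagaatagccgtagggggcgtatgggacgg
HSP90B1: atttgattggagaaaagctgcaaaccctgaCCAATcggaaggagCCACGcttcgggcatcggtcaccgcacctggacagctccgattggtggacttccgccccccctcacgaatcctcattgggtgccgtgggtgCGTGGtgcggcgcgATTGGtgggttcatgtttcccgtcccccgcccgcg
CALR: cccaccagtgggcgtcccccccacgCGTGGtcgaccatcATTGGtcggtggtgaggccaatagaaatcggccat
XBP1: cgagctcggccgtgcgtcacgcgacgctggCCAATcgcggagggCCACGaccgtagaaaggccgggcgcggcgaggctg
SERP1: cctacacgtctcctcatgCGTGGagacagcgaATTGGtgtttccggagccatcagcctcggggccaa

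Recovered reads behind the RPKM values numbered 8172424 and 7794792 in Tg replicates 1 and 2, against 7235833 and 4504557 in DMSO. The 2 mitochondrial ribosomal RNAs took 49.9% and 29.9% of the reads in Tg and 43.8% and 34.1% in DMSO. Among the markers listed for HEK293T, VIM, KRT18, NEFL, NEFM and INA were present and PAX2, LHX1 and GATA3 were under 1 RPKM in all 4 libraries. The libraries differed strongly by replicate number: NEFM stood at 43.7 and 1.23 RPKM in Tg and at 62.2 and 0.253 RPKM in DMSO, and the fibroblast marker COL1A1 at 19.0 and 0.261 RPKM in Tg and at 18.1 and 0.0904 RPKM in DMSO. PTPRC, HBB, UMOD, CDH5 and KRT5, which mark blood, red cells, mature tubule, endothelium and basal epithelium, were at 0 in all 4, where a count of 0 allows up to 3 reads. EIF3D itself stood at 44.2 and 91.2 RPKM in Tg and at 68.3 and 69.6 RPKM in DMSO, so the Tg libraries lay on either side of the DMSO ones. That level does not check the genotype label, because both forms of the protein are encoded by the same gene.

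The spread between replicate numbers was the main feature of the WT libraries. On the log2(RPKM + 1) scale used for every difference below, replicate 2 differed from replicate 1 with an SD over genes of 1.17 in Tg and 1.14 in DMSO. Tg differed from DMSO with an SD of only 0.387 within replicate 1 and 0.510 within replicate 2. The differences of replicate 2 from replicate 1 in Tg and in DMSO went together across genes (Pearson r = 0.86 over 9637 genes, which share the libraries and are not independent). Nothing in the labels says what a replicate number stands for. The shift of all genes also differed, with a median difference of -0.0007 in replicate 1 and 0.24 in replicate 2. Differences within a replicate number are therefore given less the median of all genes in that number, and are called relative.

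No gene passed the test. In limma's fit of the 8 libraries, Tg against DMSO in WT cells called 0 of 9637 genes (0%) at an adjusted p under 0.05, while the unadjusted p was under 0.05 for 24. The adjusted p was 1 for each gene named below. With voom weights on the recovered reads, limma again called none, and 7 genes had an unadjusted p under 0.05. The fit sets each difference against a spread that holds the contrast between replicate numbers. An exact permutation test of 2 libraries against 2 could not reach 0.05 either, since its smallest two-sided p is 0.333. What follows is thus a description of levels and differences, in which the 2 replicate numbers serve as 2 views of the same contrast.

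The responses within the 2 replicate numbers were only loosely related. Across the 9637 genes their Pearson r was 0.11 and their Spearman rho 0.14, a description over genes measured in the same libraries. Relative to the all-gene median, 2608 genes (27.1%) were higher in Tg in both numbers, 2609 (27.1%) were lower in both, and 4418 (45.8%) had opposite directions. These shares of all genes stand beside every count of list members given below. Past a relative difference of 0.5 in both, 133 genes (1.38%) were higher and 217 (2.25%) lower, while 185 were past 0.5 in both with opposite directions. Without subtracting the all-gene median, the same limit gave 215 higher and 111 lower, so the higher share went to 66.0% of the genes past it instead of 38.0%. Both Tg libraries stood above both DMSO libraries for 631 genes (6.55%) and below both for 359 (3.73%), counted on the RPKM as deposited.

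**Figure D1:**
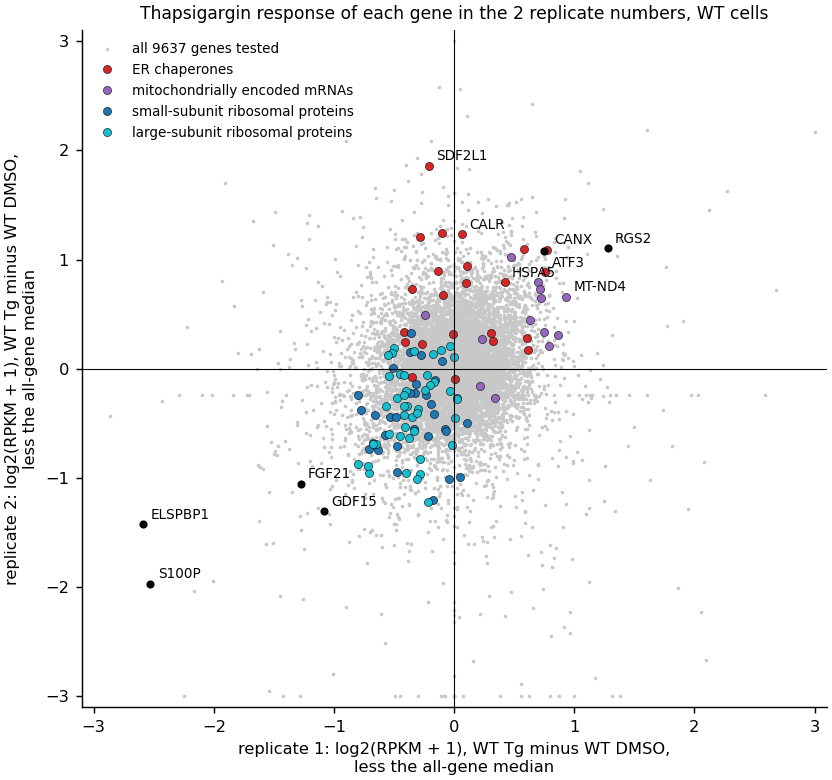
Each point is 1 of the 9637 genes tested, placed by its log2(RPKM + 1) difference, WT Tg minus WT DMSO less the all-gene median, in replicate 1 (x axis) and in replicate 2 (y axis), with points beyond 3 drawn at 3. The cloud has little slope (r = 0.11), ER chaperones lie mainly in the upper part, mitochondrially encoded mRNAs mainly at the upper right, and ribosomal protein mRNAs mainly at the lower left.

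Most genes for ER chaperones were higher in Tg in replicate 2, while in replicate 1 they were divided. In these bulk libraries more cells with a transcript and more RNA per cell cannot be told apart. Of 25 listed chaperones and co-chaperones 23 were tested, 11 were higher in both replicate numbers and 1 was lower in both, against 27.1% of all genes in each direction. Their median relative difference was 0.0072 in replicate 1, where 12 of 23 were higher, and 0.73 in replicate 2, where 21 of 23 were. None passed the test. The summed RPKM of the 23 was 480.5 and 779.5 in Tg, against 401.9 and 341.6 in DMSO. The median over both numbers, 0.40, was 0.058 without Tg replicate 2, the library that holds most of the difference, and was 0.71 without Tg replicate 1. Leaving out 1 WT library sets 1 replicate number in its group against both in the other. Such values, here and below, therefore also hold the contrast between replicate numbers. A turn of direction in them does not by itself show that the response within a number turned.

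HSPA5 (ENSG00000044574.7), which binds unfolded chains and holds the stress sensors silent, stood at 97.5 and 69.5 RPKM in Tg, against 72.6 and 33.4 RPKM in DMSO. Its relative differences were 0.42 and 0.79, and the fitted log2 difference was 0.73 (SE 0.86, limma adjusted p = 1). Tg was above DMSO in each replicate number, but the groups overlapped because DMSO replicate 1 lay above Tg replicate 2. CANX (ENSG00000127022.14), a lectin chaperone of the ER membrane, stood at 53.8 and 34.9 RPKM in Tg, against 31.1 and 13.2 RPKM in DMSO. Its groups did not overlap, its relative differences were 0.77 and 1.09, and it was the chaperone that ranked highest by the smaller of the 2. CALR, the soluble partner of calnexin, stood at 47.1 and 99.9 RPKM in Tg, against 45.0 and 35.3 RPKM in DMSO. Almost all of that difference came from replicate 2, with relative values of 0.066 and 1.23.

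HSP90B1, an ER member of the HSP90 family, stood at 111.4 and 39.7 RPKM in Tg, against 73.0 and 27.2 RPKM in DMSO, with relative differences of 0.60 and 0.28. Over both numbers it was -0.21 without Tg replicate 1 and -0.043 without DMSO replicate 2, settings that leave the replicate numbers unbalanced. DNAJB9, a co-chaperone of BiP, stood at 8.02 and 4.97 RPKM in Tg, against 4.33 and 1.72 RPKM in DMSO. Both Tg libraries were above both DMSO libraries, with relative differences of 0.76 and 0.89. FKBP10, a prolyl isomerase that folds collagen, stood at 11.4 and 35.4 RPKM in Tg, against 7.34 and 13.3 RPKM in DMSO. SDF2L1, a component of ER chaperone complexes, showed how far the numbers could part: it stood at 8.34 and 149.7 RPKM in Tg, against 9.80 and 34.1 RPKM in DMSO. It was lower by 0.21 in replicate 1 and higher by 1.86 in replicate 2, and its difference over both was -1.19 without Tg replicate 2 and -0.18 without DMSO replicate 1.

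Of the 11 tested genes with an exact ERSE, 8 were higher in both replicate numbers and 0 were lower in both, against the 27.1% of all genes in either direction. Their medians were 0.42 in replicate 1 and 0.41 in replicate 2. SERP1, whose product protects newly made membrane proteins, had the largest difference of the 11: it stood at 15.9 and 35.8 RPKM in Tg, against 9.59 and 10.5 RPKM in DMSO. XBP1, the transcription factor made active by IRE1, stood at 111.3 and 118.2 RPKM in Tg, against 109.6 and 83.1 RPKM in DMSO. Its groups did not overlap, yet its relative difference was only 0.023 in replicate 1 and 0.26 in replicate 2. The table counts whole genes and does not separate the spliced form of XBP1. The element was thus found in genes with a large difference, such as CANX, and in genes with a small one. A match describes the letters in the window and does not show a bound site.

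Other ER functions had smaller medians than the chaperones in replicate 2 and larger ones in replicate 1. Among disulfide isomerases and ER oxidases 9 of 19 were higher in both numbers and 3 lower in both, with medians of 0.014 and 0.28. PDIA4, an isomerase that works with BiP, led them at 36.4 and 80.5 RPKM in Tg, against 24.3 and 26.9 RPKM in DMSO, and its groups did not overlap. PRDX4, an ER peroxidase picked here because it went the other way, stood at 138.7 and 167.9 RPKM in Tg, against 241.3 and 174.5 RPKM in DMSO. Of 59 tested genes for translocation, glycosylation and secretion, 32 were higher in both and 7 lower in both, with medians of 0.14 and 0.36. TMED2, a cargo receptor of transport vesicles, stood at 23.8 and 13.2 RPKM in Tg, against 15.7 and 3.59 RPKM in DMSO. STT3B (a catalytic subunit of oligosaccharyltransferase), LMAN1 (a lectin cargo receptor) and SSR1 (a subunit of the translocon-associated complex) were past 0.5 in both numbers, at relative differences from 0.53 to 0.96. For each of these 3 as well as TMED2, DMSO replicate 1 lay above Tg replicate 2. Of 31 tested genes of ER-associated degradation 17 were higher in both and 2 lower in both, with medians of 0.15 and 0.20. None was past 0.5 in both. Beside the counts of these lists, 27.1% of all genes were higher in both and 27.1% lower in both. HERPUD1, which helps to assemble the degradation complex, stood at 19.5 and 18.5 RPKM in Tg, against 20.7 and 8.69 RPKM in DMSO.

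The list of sensors and transducers had medians close to that of all genes. Of 13 tested genes for sensors and transducers of the unfolded protein response, 4 were higher in both numbers and 2 lower in both, with medians of -0.12 and 0.11. ATF6 stood at 4.23 and 1.64 RPKM in Tg, against 2.89 and 1.49 RPKM in DMSO, with relative differences of 0.43 and -0.16. ERN1 (IRE1) and EIF2AK3 (PERK) were below the limit of 1 RPKM and are not part of the list medians. EIF2AK3 stood at 1.53 and 0.590 RPKM in Tg, against 0.864 and 0.245 RPKM in DMSO. ATP2A2 (SERCA2), the pump that thapsigargin blocks, stood at 6.17 and 3.02 RPKM in Tg, against 5.78 and 2.24 RPKM in DMSO. Its relative differences were 0.083 and 0.066, and over both numbers it was -0.26 without Tg replicate 1 and -0.25 without DMSO replicate 2. ORAI1, the plasma membrane channel that opens when ER calcium is low, stood at 7.40 and 18.6 RPKM in Tg, against 4.58 and 10.0 RPKM in DMSO, at relative differences of 0.59 in each number. Over both, ORAI1 was -0.027 without Tg replicate 2 and -0.055 without DMSO replicate 1.

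**Figure D2:**
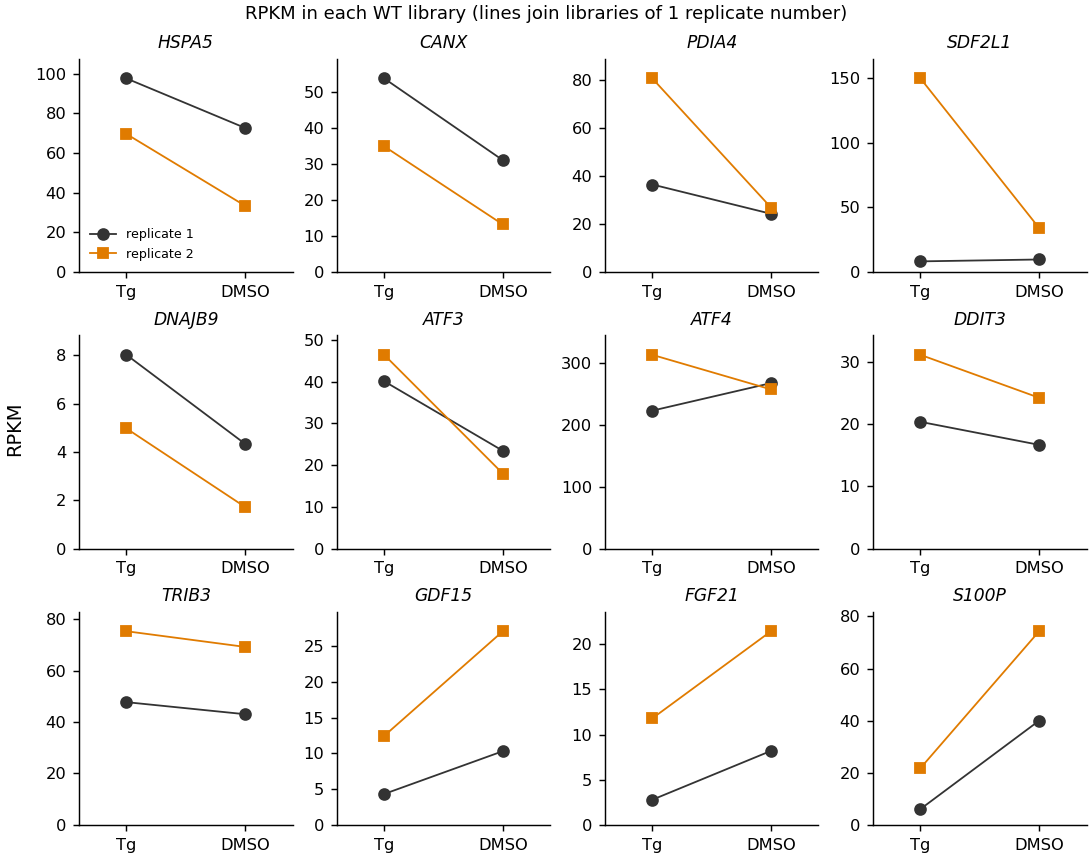
RPKM of 12 stress-related genes in each WT library, with Tg left of DMSO; black circles are replicate 1, orange squares replicate 2, and a line joins the 2 libraries of 1 number. HSPA5, CANX, PDIA4, DNAJB9, ATF3, DDIT3 and TRIB3 are higher in Tg in both numbers, SDF2L1 in replicate 2 only, ATF4 in replicate 2 only, and GDF15, FGF21 and S100P are lower in Tg in both. These directions are of RPKM as deposited, and relative to all genes TRIB3 was at -0.12 in replicate 2.

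Genes of the ISR had no shared direction. Of 13 tested ISR transcription factors 6 were higher in both numbers and 4 lower in both, with medians of -0.089 and 0.10. ATF3, a stress-induced repressor and activator, was past 0.5 in both at 40.1 and 46.4 RPKM in Tg, against 23.4 and 17.95 RPKM in DMSO, and its groups did not overlap. The fitted log2 difference of ATF3 was 1.04 (SE 0.67, limma adjusted p = 1). JUN, a subunit of AP-1, stood at 20.1 and 40.1 RPKM in Tg, against 14.5 and 17.7 RPKM in DMSO. ATF4, which acts mainly through its translation, stood at 223.5 and 313.9 RPKM in Tg, against 268.1 and 257.9 RPKM in DMSO, so that the Tg libraries lay on either side of both DMSO libraries. DDIT3, a cell death regulator, stood at 20.4 and 31.2 RPKM in Tg, against 16.7 and 24.3 RPKM in DMSO, and its difference over both was -0.11 without Tg replicate 2 and -0.22 without DMSO replicate 1. NUPR1, a stress-induced chromatin protein, was lower in Tg in both numbers at 7.82 and 22.5 RPKM, against 18.4 and 27.2 RPKM in DMSO.

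Genes downstream of ATF4 had no shared direction either. Of 18 tested ISR effector genes 3 were higher in both numbers and 7 lower in both, with medians of -0.12 and -0.095. The median over both was -0.43 without DMSO replicate 1 and -0.45 without Tg replicate 2, but 0.39 without DMSO replicate 2 and 0.41 without Tg replicate 1. TRIB3, a pseudokinase that restrains ATF4, stood at 47.7 and 75.3 RPKM in Tg, against 43.0 and 69.2 RPKM in DMSO. CHAC1, which degrades glutathione, stood at 9.03 and 27.4 RPKM in Tg, against 9.53 and 29.3 RPKM in DMSO. Neither was past 0.35 in either number, and the direction of both over the 2 numbers turned with the library left out. GDF15, a secreted stress hormone, stood at 4.33 and 12.5 RPKM in Tg, against 10.3 and 27.1 RPKM in DMSO, and FGF21, another stress hormone, at 2.79 and 11.8 RPKM in Tg, against 8.19 and 21.4 RPKM in DMSO. Both were past 1 downward in each replicate number, although replicate 2 in Tg lay above replicate 1 in DMSO. Over both numbers GDF15 ranged from -2.01 without DMSO replicate 1 to -0.33 without DMSO replicate 2, and FGF21 from -2.05 without Tg replicate 2 to -0.21 without Tg replicate 1. PPP1R15A (GADD34), which directs the phosphatase that restores eIF2, stood at 9.80 and 38.9 RPKM in Tg, against 10.6 and 19.6 RPKM in DMSO. ASNS, the asparagine synthetase often used as an ATF4 reporter, was under 1 RPKM in all 4 libraries and was not tested. Genes for eIF2, eIF2B, the eIF2 kinases and the phosphatases had 11 of 19 higher in both numbers and 1 lower in both, with medians of 0.17 and 0.32. Genes of amino acid and one-carbon synthesis, which ATF4 serves, had 8 of 17 higher in both and 4 lower in both, with medians of 0.086 and 0.058. Of all genes, 27.1% were higher in both and 27.1% lower in both.

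The Subunit-Seq inputs gave the same contrast in other cells, HA-eIF3d-TEV cells given the same 600 nM Tg for 16 h or DMSO, with a different library kit. Each of the 2 inputs per treatment was deposited in a table normalized on its own, so values are set side by side with no test. Within input replicates 1 and 2, HSPA5 was higher by 2.29 and 2.48 relative to all genes, DDIT3 by 2.78 and 1.89, and TRIB3 by 2.28 and 3.46. In WT RNA-Seq the same relative differences were 0.42 and 0.79 for HSPA5, 0.27 and 0.10 for DDIT3, and 0.15 and -0.12 for TRIB3. The ER chaperone list had medians of 1.09 and 1.04 in the inputs, against 0.0072 and 0.73 in WT RNA-Seq, and the ISR effector list 0.71 and 1.06, against -0.12 and -0.095. GDF15, FGF21 and NUPR1 went opposite ways in the 2 experiments. In the inputs GDF15 stood at 1.31 and 2.19 RPKM in Tg, against 0.530 and 0.754 RPKM in DMSO, and NUPR1 at 6.77 and 8.09 RPKM in Tg, against 1.04 and 1.11 RPKM in DMSO. In WT DMSO cells DDIT3, TRIB3, GDF15 and NUPR1 stood at levels above those of the DMSO inputs in every library, as with TRIB3 at 43.0 and 69.2 RPKM in WT RNA-Seq and 16.0 and 6.56 RPKM in the inputs. HSPA5, at 72.6 and 33.4 RPKM against 9.06 and 13.8 RPKM, and HSP90B1 stood above the DMSO inputs in the same way. ATF4 did not, at 268.1 and 257.9 RPKM against 429.5 and 132.9 RPKM. The share of all genes that stood above the DMSO inputs was not counted. Levels set across the tables rest on separate normalization, and whether it contributes was not tested.

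**Figure D3:**
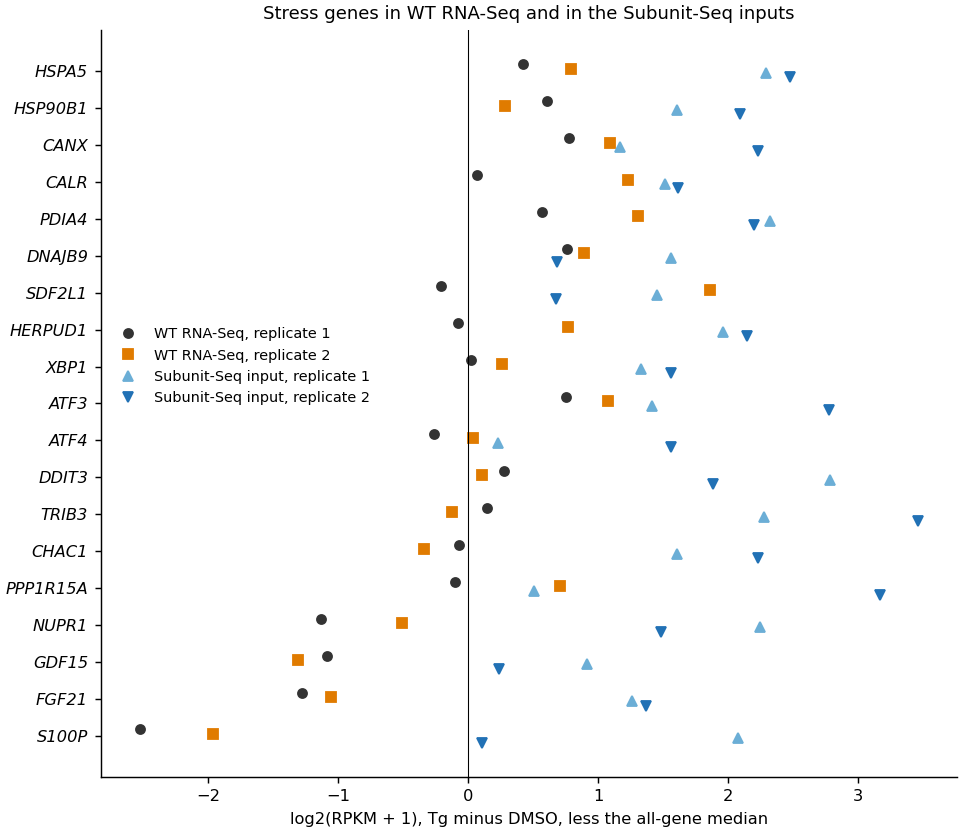
Log2(RPKM + 1) difference, Tg minus DMSO less the all-gene median, of 19 genes in replicates 1 and 2 of WT RNA-Seq (black circles, orange squares) and of the Subunit-Seq inputs (blue triangles). HSPA5, DDIT3 and TRIB3 lie beyond 1.8 in both inputs and under 0.8 in both WT numbers, and GDF15, FGF21, NUPR1 and S100P are on opposite sides of 0.

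Most ribosomal protein mRNAs were lower in Tg within both replicate numbers. Of 31 tested small-subunit genes 24 were lower in both numbers and 0 higher in both, with medians of -0.33 and -0.44. Of 45 large-subunit genes 34 were lower in both and 0 higher in both, with medians of -0.38 and -0.34. None passed the test, and 4 and 6 of them were past 0.5 downward in both, against 2.25% of all genes. At any size, 27.1% of all genes were lower in both. RPL27 stood at 534.2 and 1358 RPKM in Tg, against 930.7 and 2102 RPKM in DMSO, and RPL32 at 881.8 and 1141 RPKM in Tg, against 1438 and 1862 RPKM in DMSO. The groups of RPL32 did not overlap, while for RPL27 Tg replicate 2 lay above DMSO replicate 1. RPS26 stood at 277.1 and 306.5 RPKM in Tg, against 453.9 and 430.8 RPKM in DMSO. RPS2 went the other way in replicate 2, at 1936 and 13281 RPKM in Tg, against 2485 and 8963 RPKM in DMSO. The list medians over both numbers, -0.41 and -0.35, were 0.12 and 0.078 without Tg replicate 1 and 0.13 and 0.092 without DMSO replicate 2, and -0.69 or lower without either of the other libraries. Leaving out a library unbalances the replicate numbers, within each of which both medians were negative. In the Subunit-Seq inputs the small-subunit median was 0.21 and -0.94. Elongation factors and other mRNAs with a 5′ terminal oligopyrimidine tract, which are translated under the same control, split by number, with medians of -0.19 and 0.46. Ribosomal protein genes share reads with many processed pseudogenes, so their values are uncertain to that extent.

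The 13 mRNAs of the mitochondrial genome were higher in Tg: 10 in both numbers and 0 lower in both, with medians of 0.70 and 0.45. In 8 of the 13 both Tg libraries lay above both DMSO libraries, against 6.55% of all genes. MT-ND4, a subunit of complex I, stood at 976.1 and 1118 RPKM in Tg, against 510.8 and 596.4 RPKM in DMSO. MT-CO2, a subunit of cytochrome oxidase, stood at 3800 and 6181 RPKM in Tg, against 2305 and 3333 RPKM in DMSO. MT-CO1, of the same enzyme, differed less, at 3671 and 2649 RPKM in Tg, against 3119 and 1856 RPKM in DMSO. The list median over both was 0.55, and it was 0.36 without DMSO replicate 1, 0.37 without Tg replicate 2, 0.70 without Tg replicate 1 and 0.99 without DMSO replicate 2. It was 0.63 after rescaling without mitochondrial genes. The mitochondrial ribosomal RNA MT-RNR2, from the same genome, stood at 264169 and 160747 RPKM in Tg, against 236252 and 159990 RPKM in DMSO, so it was not higher in replicate 2 relative to all genes (-0.24). In the Subunit-Seq inputs the mRNA list had medians of 0.0027 and -1.17.

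Nuclear genes for the same respiratory chain stood the other way. Of 48 tested, 4 were higher in both numbers and 27 lower in both, with medians of -0.28 and -0.17. COX7B, of cytochrome oxidase, stood at 112.6 and 80.6 RPKM in Tg, against 173.7 and 134.2 RPKM in DMSO. NDUFS5, of complex I, stood at 348.2 and 292.0 RPKM in Tg, against 593.9 and 378.4 RPKM in DMSO, and the groups of both genes did not overlap. ATP5F1D, of the ATP synthase, was an exception at 36.7 and 180.1 RPKM in Tg, against 24.3 and 104.0 RPKM in DMSO. The list median over both was -0.25, and it was 0.17 without Tg replicate 1 and 0.049 without DMSO replicate 2.

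**Figure D4:**
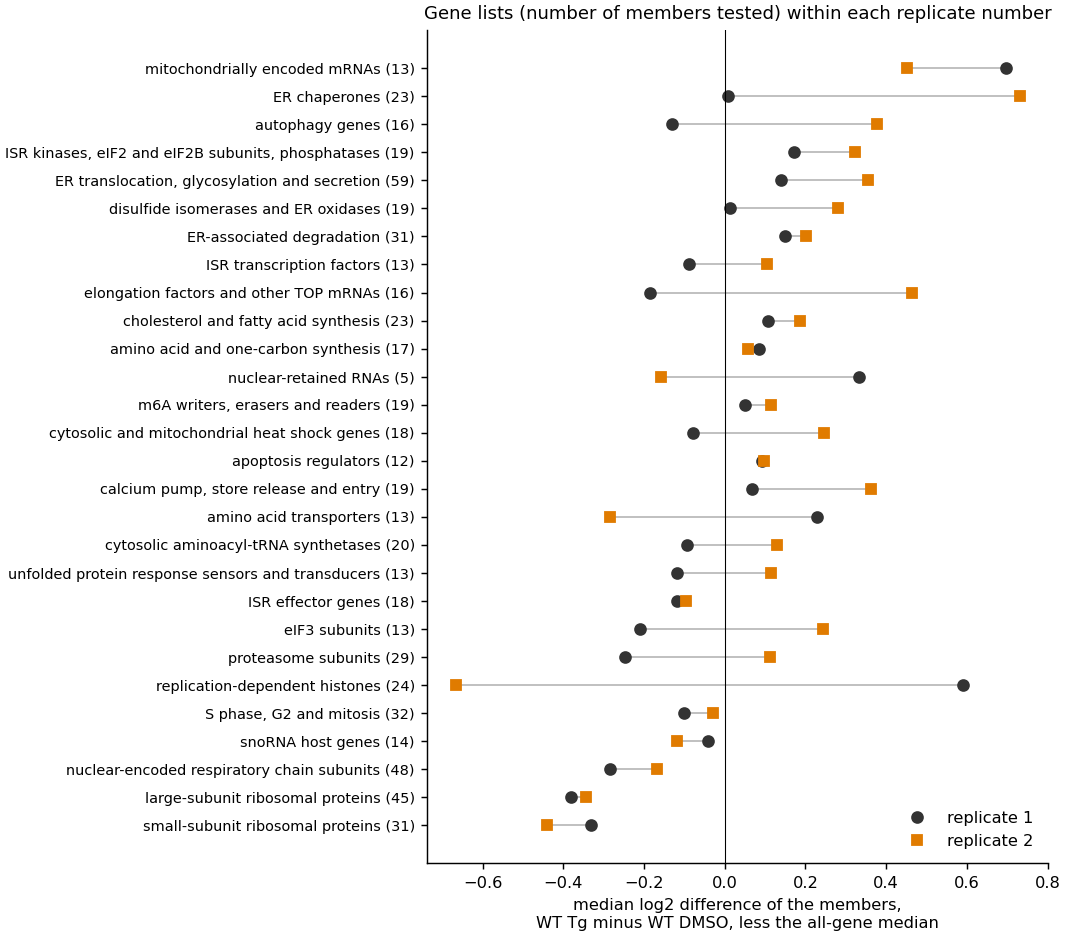
Median log2 difference of the tested members of each gene list, WT Tg minus WT DMSO less the all-gene median, within replicate 1 (black circles) and replicate 2 (orange squares), ordered by the median over both. Mitochondrially encoded mRNAs lie at 0.70 and 0.45, ribosomal protein lists between -0.33 and -0.44, and replication-dependent histones on opposite sides at 0.59 and -0.67.

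Several groups had median differences of opposite sign in replicate 1 and replicate 2. Replication-dependent histones, whose mRNAs mostly lack a poly(A) tail, had medians of 0.59 and -0.67, and 20 of 24 tested had opposite directions. The eIF3 subunits had medians of -0.21 and 0.24, and proteasome subunits -0.25 and 0.11. Genes of S phase, G2 and mitosis lay close to the median of all genes at -0.10 and -0.029, with 6 of 32 higher in both and 14 lower in both. CCNB2, cyclin B2, was the one of them past 0.5 in both, at 16.0 and 13.1 RPKM in Tg, against 29.97 and 16.8 RPKM in DMSO. Among aminoacyl-tRNA synthetases, which charge tRNAs and include ATF4 targets, 6 of 20 were higher in both and 5 lower in both. These shares were near those of all genes, of which 27.1% were higher in both and 27.1% lower in both. VARS1 and QARS1 were past 0.5 upward in both, VARS1 at 8.04 and 18.9 RPKM in Tg, against 4.93 and 9.56 RPKM in DMSO. PMAIP1 (NOXA), a cell death protein, stood at 128.3 and 53.4 RPKM in Tg, against 89.3 and 26.4 RPKM in DMSO. Its difference over both was -0.021 without DMSO replicate 2.

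The genes with the largest differences in the same direction in both numbers were ranked by the smaller of the 2 relative differences, which uses the same values and so carries no test. RGS2, a regulator of G protein signalling, led those higher in Tg at 16.1 and 5.32 RPKM, against 6.06 and 1.48 RPKM in DMSO, on 276 and 87 reads in Tg and 92 and 14 in DMSO. CDC42EP1, an effector of the GTPase CDC42, stood at 21.8 and 110.3 RPKM in Tg, against 9.61 and 44.4 RPKM in DMSO. Its relative differences were 1.11 and 1.05, and its groups overlapped. Over both numbers it was -0.073 without Tg replicate 2 and -0.13 without DMSO replicate 1, settings that leave the replicate numbers unbalanced. RHOB, a small GTPase induced by stress, stood at 23.3 and 48.9 RPKM in Tg, against 11.8 and 13.4 RPKM in DMSO, with no overlap. GAA (lysosomal alpha-glucosidase), CPNE1 (a calcium-dependent lipid-binding protein), SNRPA (a U1 snRNP protein), GCAT (an enzyme of threonine and glycine metabolism), INSIG1 (which retains SREBP in the ER) and GMPPA (which regulates GDP-mannose supply) completed the named protein-coding genes beside CANX. INSIG1 stood at 8.84 and 5.41 RPKM in Tg, against 4.84 and 1.70 RPKM in DMSO. The other 2 of these 12, ENSG00000256148 and ENSG00000225486, have no name in the tables used, and ENSG00000256148 rested on 34 and 4 reads in Tg and 14 and 0 in DMSO.

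S100P (ENSG00000163993.6), a calcium-binding protein, had the largest difference over both numbers among the 12 genes that ranked lowest. It stood at 6.11 and 21.8 RPKM in Tg, against 40.0 and 74.3 RPKM in DMSO, on 64 and 218 reads in Tg and 371 and 429 in DMSO. Its groups did not overlap, and the fitted log2 difference was -2.13 (SE 0.85, limma unadjusted p = 0.0313, adjusted p = 1). In the Subunit-Seq inputs S100P stood at 3.67 and 6.63 RPKM in Tg, against 0.384 and 3.58 RPKM in DMSO. In DD cells given DMSO, S100P was at 1.63 and 3.77 RPKM, far below its level in WT cells given DMSO. ELSPBP1, a sperm-binding protein of the epididymis, stood at 3.81 and 7.64 RPKM in Tg, against 27.9 and 18.5 RPKM in DMSO (limma unadjusted p = 0.0130). In DD cells given DMSO, ELSPBP1 was at 2.20 and 1.64 RPKM. MDK (midkine), a heparin-binding growth factor, stood at 75.2 and 191.6 RPKM in Tg, against 155.1 and 434.8 RPKM in DMSO. C6orf52, the non-coding RNA LINC01605, GDF15 and FGF21 were among the same 12. The remaining 5, ENSG00000272006, ENSG00000284985, SNORD104, RPL39P40 and DYNLL1P2, are small RNAs, pseudogenes or unnamed genes with few reads. RPL39P40 rested on 3 and 1 reads in Tg and 8 and 2 in DMSO, and pseudogenes may share reads with their parent genes.

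Short genes made up much of what was lower. The gene length, read from the RPKM steps, had a median of 736 bases in the 217 genes lower past 0.5 in both, against 2518 in the 133 higher and 3861 in all genes tested. Of the 1394 genes under 1 kb, 9.25% were lower past 0.5 in both and 2.44% higher, and their medians were -0.15 and -0.17. Of the 3436 genes of 4 to 8 kb, 0.378% were lower and 0.815% higher. Protein-coding genes were 41.5% of the lower genes, 70.7% of the higher ones and 81.4% of all tested, by RefSeq type. Long non-coding RNAs were 16.1% of the lower genes, 3.76% of the higher ones and 3.41% of all tested, and pseudogenes 21.2%, 9.02% and 8.32%. Short genes have fewer reads at a given RPKM, and the part of read number in these shares was not tested. The mitochondrially encoded mRNAs are short too, at a median of 785 bases, and stood higher. The share of genes with a called m6A site in WT Tg cells was 2.61% of the higher genes, 6.95% of the lower genes and 5.76% of all those with a RefSeq span. In WT DMSO cells it was 9.57%, 17.6% and 11.5% of the same genes. In Tg the higher genes with a site were 3 of 115 and the lower ones 13 of 187. Sites were counted over the whole gene span on either strand. The site lists have no replicates and unknown depth.

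**Figure D5:**
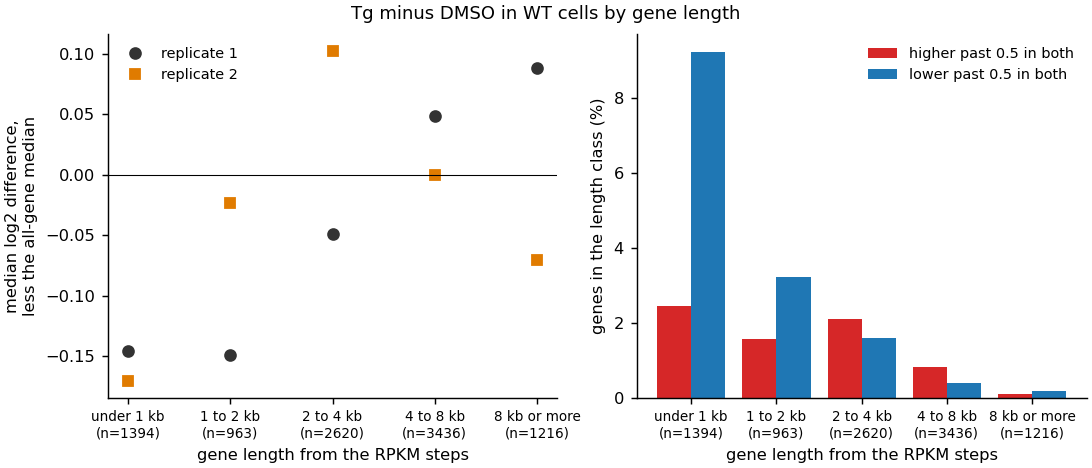
Left, median log2 difference, WT Tg minus WT DMSO less the all-gene median, of genes in 5 length classes in replicate 1 (black circles) and replicate 2 (orange squares). Right, percent of each class that was higher (red) or lower (blue) past 0.5 in both; under 1 kb 9.25% of genes are lower and 2.44% higher.

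The response in DD cells was set against that in WT cells through the interaction in the same fit. limma called 0 genes (0%). Unadjusted p-values under 0.05 numbered 21, or 27 without DD Tg replicate 2. That DD library stood apart, with 57.3% of its reads from mitochondrial ribosomal RNA. The ER chaperone list had relative medians of 0.079 and -0.42 in DD cells, against 0.0072 and 0.73 in WT cells, and 1 of its 23 tested genes was higher in both numbers in DD cells, against 11 in WT cells. Of all genes tested 14.6% were higher in both in DD cells, against 27.1% in WT cells, and the 2 numbers of DD cells went against each other across genes (r = -0.44). Of the 9637 genes, 871 (9.04%) had one direction in both numbers in DD cells and the opposite in both in WT cells.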

How the data were processed

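The authors deposited RPKM per gene and library for RNA-Seq and Subunit-Seq (per the file headers). Per the submitters' processing notes, cutadapt, STAR, DESeq2 and BWA and the build GRCh38 were used; versions, roles and the gene counter are not given in the sources used here. The deposited m6A lists hold positions of called sites, a location rather than a score, and were matched to RefSeq gene spans. RPKM values are whole multiples of what 1 read is worth, and whole reads were recovered within 0.02 for all 22283 genes above 0 in at least 3 of the 8 libraries (9629 of the 9637 tested). Depth is the sum of these reads; values of low genes carry counting error beyond the replicate spread.

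Values were taken as log2(RPKM + 1), which understates changes of low genes, for genes with a mean of at least 1 RPKM. limma 3.58.1 in R 4.3.3 was fitted to the 4 RNA-Seq groups of 2 libraries (lmFit, contrasts.fit, eBayes with trend; two-sided, Benjamini-Hochberg over 9637 genes, threshold 0.05) and was tested on simulated data. Differences within a replicate number are Tg minus DMSO less the median of all genes. The members and the 31 gene lists were chosen with earlier results of these data known; lists are described by counts and medians without a test. Named genes are EIF3D, the 12 highest and 12 lowest by the smaller of the relative differences at a mean of at least 5 RPKM, up to 4 members of each list by the same rank or its 2 most expressed, and fixed stress genes; the text prints a part of them. SERP1 and PRDX4 were picked after their values were seen. Gene names matched 58252 of 58721 identifiers. Promoters are RefSeq, GRCh38.p14. Pseudocounts, filters, scalings, the replicate block and single libraries were varied.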

Additional observations from a re-analysis of the deposited data

Results flagged for a closer look

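In DD cells 12 of the 59 genes followed through every setting were lower than the all-gene median in both replicate numbers, while in WT cells they were higher in both. Of all genes tested, 9.04% had one direction in both numbers in WT cells and the opposite in both in DD cells. That share counts either orientation, so it is not matched to these 12. The fitted differences of the response in DD cells from that in WT cells were tested as the interaction in limma, which called none of them (adjusted p = 1 each). The interaction, on the log2 scale, was -1.62 for RHOB, -1.96 for CPNE1, -1.82 for GCAT and -1.85 for GMPPA, 4 of the genes ranked highest in WT cells, whose rank in WT favours such a difference. It was -1.51 for PDIA4, -1.34 for SELENOK and -0.73 for XBP1, genes of the ER. It was -1.34 for ATF3 and -1.37 for DDIT3, transcription factors of the ISR, and -0.98 for VARS1, the valyl-tRNA synthetase. It was -0.93 for MT-CYB and -1.29 for ATP5F1D, genes of the respiratory chain. Some of these genes lay close to the all-gene median in DD cells. The relative differences of MT-CYB were -0.044 and -0.12 there, against 0.70 and 0.79 in WT cells. Those of VARS1 in DD cells were -0.43 and -0.040. Among the other genes that the naming rule picked, AUP1 did the same at -0.94, while PSAT1 (0.50), HSP90AB1 (0.52) and RBMX (0.50) were higher in both numbers in DD cells and lower in both in WT cells. PDIA4 stood at 34.1 and 26.5 RPKM in Tg and at 45.2 and 38.0 RPKM in DMSO in DD cells, where Tg was below DMSO in both numbers. DDIT3 stood at 21.4 and 14.3 RPKM in Tg and at 33.5 and 41.8 RPKM in DMSO in DD cells. VARS1, MT-CYB and ATP5F1D were named by their rank in WT cells within their lists, which favours such a difference too. PDIA4 and ATF3 met the same rank but were also among the fixed stress genes.

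The list of S phase, G2 and mitosis genes had relative medians of 0.10 and 0.38 in DD cells, against -0.10 and -0.029 in WT cells. The median of its interactions was 0.43 after the all-gene median of -0.096 was subtracted, and it was not tested. The interactions of single genes above are given without that subtraction. DD Tg replicate 2, which stood apart from the other libraries, is part of each of these values, and its part was not tested.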

How the results depend on the processing

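limma called 0 genes in WT cells and 0 for the interaction under each pseudocount, filter, scaling and library left out. Replicate numbers are shared by the groups but cannot be shown to pair the libraries with 2 numbers. The fit with the replicate block called 0 genes (67 with an unadjusted p under 0.05), and 0 without DD Tg replicate 2 (459). The replicate block in the WT libraries alone, chosen after seeing the data, called 99 (42 higher, 57 lower; 826 with an unadjusted p under 0.05), on 1 residual degree of freedom; S100P, ELSPBP1, RGS2 and MT-CO2 were among them, and 70 of the 99 were past 0.5 in both numbers in the same direction. Genes past 0.5 in both numbers went to 330 higher and 400 lower at a pseudocount of 0.1, and to 33 and 57 at 5. They went to 283 higher with no filter, 107 lower at a minimum of 5 RPKM, 11 higher and 27 lower past 1, and 215 and 111 uncentred. With DD Tg replicate 2 left out of the filter they were 132 and 223. The higher share was 62.1% with no filter and 38.0% in the reported count. Rescaling without mitochondrial genes moved the all-gene median to 0.30.

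The ER-associated degradation median was 0.13 at a pseudocount of 5, 0.31 with no filter, 0.27 at 5 RPKM and 0.24 without mitochondrial genes. For ISR effectors these 4 were -0.0076, 0.049, -0.11 and -0.0035, and -0.077 at a pseudocount of 0.1. Small-subunit genes went to -0.25 with no filter and -0.33 without mitochondrial genes. Large-subunit genes went to -0.40 and -0.29 at pseudocounts of 0.1 and 5, -0.23 with no filter, -0.39 under median-ratio scaling and -0.27 without mitochondrial genes. Nuclear respiratory genes went to -0.13 with no filter. ATF4 turned to 0.0105 with no filter, and TRIB3 to -0.0306 at a pseudocount of 0.1, -0.0255 under median-ratio scaling and -0.0200 with voom weights. The cause was not tested.

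Leaving out 1 library in turn gave list medians from 0.058 to 0.71 for ER chaperones, 0.073 to 0.38 for isomerases, 0.037 to 0.34 for translocation and secretion, and 0.055 to 0.33 for ER-associated degradation. The range was -0.57 to 0.48 for ISR transcription factors, -0.45 to 0.41 for ISR effectors, -0.79 to 0.13 for small-subunit and -0.70 to 0.092 for large-subunit genes, 0.36 to 0.99 for mitochondrially encoded mRNAs and -0.50 to 0.17 for nuclear respiratory genes. With a WT library left out, 1 replicate number in its group is set against both in the other. These ranges and those below therefore also hold the contrast between replicate numbers. Of 59 named genes 44 kept their direction in every setting. Without 1 library the range was -0.36 to 0.21 for ATF4, -0.26 to 0.48 for ATP2A2, -0.62 to 1.79 for ATP5F1D, -0.13 to 2.33 for CDC42EP1, -1.12 to 0.77 for CHAC1, -0.22 to 0.66 for DDIT3, -0.76 to 0.36 for EIF3D and -0.028 to 0.77 for HERPUD1. It was -0.21 to 1.17 for HSP90B1, -0.055 to 1.29 for ORAI1, -0.021 to 1.34 for PMAIP1, -0.64 to 1.33 for PPP1R15A, -1.40 to 0.098 for RPS16, -1.19 to 2.91 for SDF2L1 and -0.48 to 0.56 for TRIB3. Depth limits genes under about 1 RPKM, and short genes, where a few reads set the value.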
